A study of Homo sapiens with 6 samples.

Results

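AP-1 and related immediate early genes were examined in U-2 OS cells, a human osteosarcoma line, with and without ionizing radiation (IR). The 10 members were FOS, FOSB, FOSL1, FOSL2, JUN, JUNB, JUND, ATF3, EGR1 and IER2, chosen by gene symbol from 21447 genes for which estimated RNA-seq counts could be summed over transcripts. All 10 members had enough counts to be among the 14323 genes tested. Bulk RNA-seq had been made from 3 untreated libraries and from 3 libraries of cells that received 4 Gy and were collected 24 h later. Every culture was of the same line, grown in serum-containing medium with antibiotics, and no other agent or genetic change is named for these libraries. The study describes the triplicates as independent, distinct samples without saying whether each was a separate culture, so the P values measure the spread between these samples. No collection time other than 24 h was analysed here.

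AP-1 is a dimeric transcription factor built from a FOS family protein and a JUN family protein, or from pairs of JUN proteins or related ATF proteins, held together by a leucine zipper. It binds the palindrome TGACTCA, whereas dimers with ATF and CREB proteins prefer TGACGTCA. Immediate early genes such as FOS, JUNB, EGR1 and IER2 are transcribed within minutes of a growth or stress signal without new protein synthesis, and their RNAs are typically short-lived. ATF3 is a stress-responsive member of the ATF family and is also known as a target of p53, the transcription factor activated by DNA damage.

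The libraries held 18573309 to 22953834 estimated counts, except IR replicate 3, with 45308792. The deposited data of that library carry a mark that could stand for a repeat, and the sources do not say whether it was sequenced again. It also stood apart in its counts, with a chi-square per gene of 29.1 and 32.3 against the other IR libraries, whereas the pairs without it were at 3.46 to 9.22. The call of no member was lost without it, and its removal changed the sign of none. Collagen, vimentin and other mesenchymal or osteoblast markers were abundant, with a summed level of 6802 to 7436 CPM (counts-per-million, with library sizes scaled by TMM) in untreated and 7228 to 7908 CPM in IR libraries, and none of these 7 genes was at 0. Of the defining osteoblast markers, however, COL1A2, which encodes a chain of type I collagen, was at 0.98 to 2.14 CPM, and ALPL, a phosphatase of mineralizing bone, was at 1.70 to 2.14 CPM in untreated and 3.05 to 4.95 CPM in IR libraries. The 4 epithelial markers summed to 12.0 to 14.9 CPM in untreated and 13.1 to 15.6 CPM in IR libraries. Blood and endothelial markers summed to 11.9 to 14.4 CPM in untreated and 16.7 to 21.5 CPM in IR libraries, with 2 of the 6 at 0 in every library. The markers called in edgeR were ALPL at a log2 fold change of 1.09, CD68, a macrophage marker, at 0.67, CDH1, an epithelial cadherin, at 0.61 and RUNX2, an osteoblast transcription factor, at -0.36. PTPRC, a leukocyte marker, was at 1.48 ± 0.248 CPM in untreated and 0.878 ± 0.165 CPM in IR libraries (SD, n = 3 each) and was not called, although its groups did not overlap. These markers were named after their values were seen. The part of those markers in the results was not tested. The 4 p53 target genes CDKN1A, FAS, GADD45A and MDM2 had log2 fold changes of 1.53, 1.27, 0.80 and 0.60. The paper already lists these 4 among the genes most strongly induced in its bulk RNA-seq. Their rise is thus no independent check of the irradiation labels.

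Promoter sequence is shown for 5 members, because letters of the elements that AP-1, CREB and serum response factor are known to bind can be read in them. RefSeq windows (GRCh38.p14) of 250 bases before to 50 bases after a start site were matched by symbol for 9 of the 10 members, giving 10 windows in all, 2 of them for ATF3. Positions count from the start site as 0, and each stretch below is 150 bases of the strand that is transcribed. Capitals mark TGACG or its reverse complement CGTCA, the full element TGACGTCA, which contains both, the variant TGACATCA, and the CArG box bound by serum response factor. The EGR1 stretch was chr5:138465329-138465478 on the plus strand, with CArG boxes beginning at -105 and -83 and CGTCA at -135 and -66.
EGR1: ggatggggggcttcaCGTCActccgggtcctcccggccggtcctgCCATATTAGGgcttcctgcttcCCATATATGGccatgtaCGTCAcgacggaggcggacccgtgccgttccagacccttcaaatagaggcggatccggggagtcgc
The JUND stretch was chr19:18281683-18281832 on the minus strand, from -210 to -61, with TGACGTCA at -200 and CGTCA at -86.
JUND: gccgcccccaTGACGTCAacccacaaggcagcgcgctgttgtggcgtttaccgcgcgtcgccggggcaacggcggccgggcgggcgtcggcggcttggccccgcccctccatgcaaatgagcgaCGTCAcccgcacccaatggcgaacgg
The FOSB stretch was chr19:45467846-45467995 on the plus strand, with TGACG at -60. Transcripts starting within 50 bases of this start site held 13.1 to 100% of FOSB counts in a library.
FOSB: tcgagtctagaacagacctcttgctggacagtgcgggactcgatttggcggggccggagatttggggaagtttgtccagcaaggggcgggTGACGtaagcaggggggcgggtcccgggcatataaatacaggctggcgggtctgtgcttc
The FOS stretch was chr14:75278678-75278827 on the plus strand, with TGACG at -64.
FOS: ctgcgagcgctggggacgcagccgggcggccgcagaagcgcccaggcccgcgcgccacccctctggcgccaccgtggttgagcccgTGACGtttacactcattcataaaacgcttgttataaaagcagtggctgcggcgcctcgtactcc
The JUN stretch was chr1:58784048-58784197 on the minus strand, with TGACG at -123 and the variant at -67.
JUN: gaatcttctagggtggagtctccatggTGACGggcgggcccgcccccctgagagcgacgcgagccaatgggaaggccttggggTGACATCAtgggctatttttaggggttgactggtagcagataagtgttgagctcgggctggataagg
The EGR1 stretch thus held paired CArG boxes, JUND a complete TGACGTCA, and FOS and FOSB a TGACG at almost the same distance from the start.

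TGACG or CGTCA occurred in 8 of the 10 member windows and in 24.6% of all 35116 windows of this length. The other motifs were each found in few member windows. A CArG box was present in the EGR1 window alone among members and in 1.29% of all windows. The windows reach 250 bases before the start site, so a box farther upstream in another member would not be seen. The full TGACGTCA was found in JUND alone among members and in 1.85% of windows. TGACATCA, on either strand, was found in the JUN window, in an ATF3 window and in 2.61% of all windows. No quantified ATF3 transcript began within 50 bases of the start site of that ATF3 window. The AP-1 palindrome TGACTCA, or TGAGTCA on the other strand, was present in the FOSL2 window at position 4 and in 4.95% of all windows. Both strands were searched, and a match describes the letters only, with binding not measured here.

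After IR, 5 of the 10 members were higher by edgeR's quasi-likelihood test at a Benjamini–Hochberg adjusted P of 0.05, and none was lower. Of all 14323 genes tested, 15.5% were called higher and 14.5% lower, or 30.1% either way. The genes that rose were ATF3, FOSB, JUND, EGR1 and FOSL1. For the same 5 genes all IR libraries lay above all untreated libraries, as was so for 23.8% of the genes tested, and 23.3% lay entirely below. The median log2 fold change of the members was 0.38, against 0.01 over all tested genes. In bulk RNA, a change in the number of cells that carry a transcript and a change in the amount per cell cannot be told apart.

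**Figure D1:**
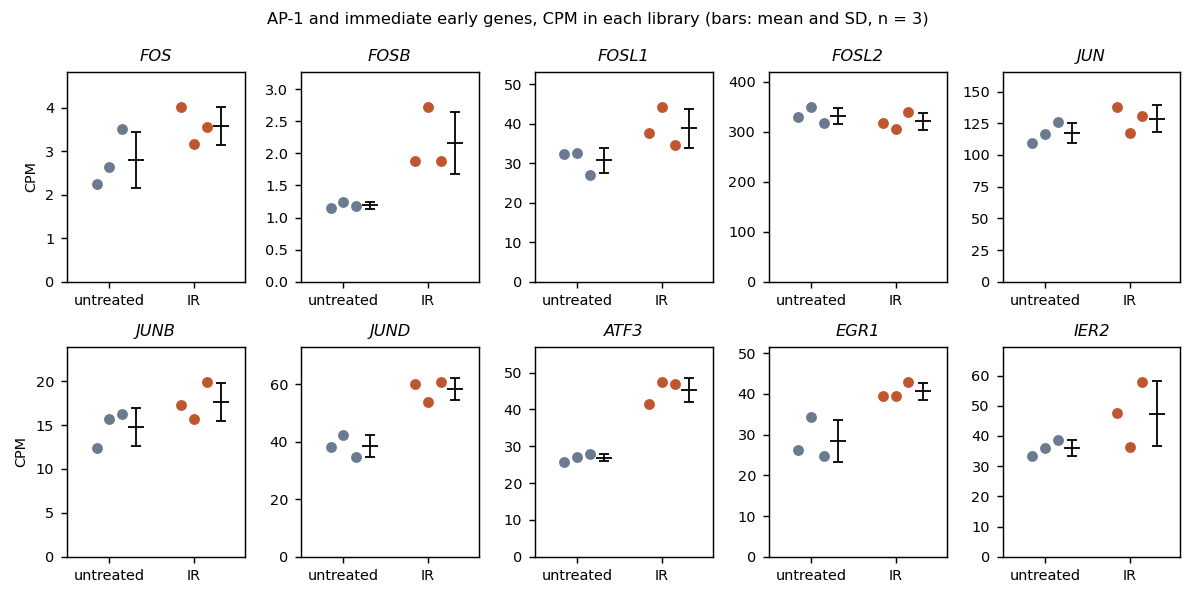
Level of each member in TMM-scaled CPM (1 panel per gene with its own axis) in the 3 untreated and 3 IR libraries, with points for libraries and bars for group means and SD. ATF3 had untreated libraries at 25.8 to 27.8 CPM and IR libraries at 41.6 to 47.5 CPM, whereas FOSL2 and JUN had overlapping groups.

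The FOS family supplies partners that need a JUN protein to bind DNA, and FOSB was its member with the largest fold change. FOSB (chr19:45467995-45475179, plus strand), which encodes a FOS protein and a truncated splice form lacking its C-terminal part, had levels of 1.15, 1.25 and 1.17 CPM in the untreated libraries and 1.89, 2.72 and 1.88 CPM in the IR libraries, each in the order of replicates 1, 2 and 3, as below. The groups were apart, but the levels were low, resting on 21, 28 and 24 counts in untreated and 39, 50 and 85 counts in IR libraries. The log2 fold change was 0.84 (SE 0.25, 95% confidence interval 0.28 to 1.40, adjusted P = 0.0303, edgeR), from 1.19 ± 0.05 to 2.16 ± 0.483 CPM (SD, n = 3 each). The FOSB call depended on single libraries, with an adjusted P (edgeR) of 0.0856, 0.0747 and 0.07 without untreated replicate 1, 2 or 3 and 0.117 without IR replicate 2. FOSB counts were spread over several annotated transcripts that differed between libraries, the canonical one holding 7.09 to 71.1% of them in untreated and 0 to 42.0% in IR libraries.

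FOSL1 (chr11:65892049-65900573, minus strand), which encodes FRA-1, a FOS protein without a strong activation domain, was at 32.4, 32.6 and 27.0 CPM in untreated and 37.7, 44.2 and 34.6 CPM in IR libraries. The lowest IR library was just above the highest untreated library. FOSL1 rose from 30.7 ± 3.18 to 38.8 ± 4.91 CPM (SD, n = 3 each) and its log2 fold change was 0.33 (SE 0.11, interval 0.09 to 0.57, adjusted P = 0.0408, edgeR). The FOSL1 call was lost without untreated replicate 1, 2 or 3 (adjusted P 0.0694, 0.0643 and 0.14, edgeR) and without IR replicate 1 or 2 (0.0673 and 0.144). The canonical FOSL1 transcript took 42.3 to 70.0% of FOSL1 counts in untreated and 71.9 to 74.8% in IR libraries, and a shorter transcript of 1427 bases took 17.8 to 41.7% and 2.99 to 17.8%. Transcript shares were estimated by kallisto and were not tested.

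FOS and FOSL2 did not pass the test. FOS (chr14:75278826-75282230, plus strand), the prototype immediate early gene, was at 2.25, 2.63 and 3.52 CPM in untreated and 4.02, 3.16 and 3.56 CPM in IR libraries, with IR replicate 2 inside the untreated range. These levels rested on 41 to 72 counts in untreated and 58 to 161 counts in IR libraries. The FOS log2 fold change was 0.35 (SE 0.21, interval -0.12 to 0.83, adjusted P = 0.235, edgeR), so that neither no change nor a rise of 0.83 lay outside the interval. FOSL2 (chr2:28392448-28417317, plus strand), which encodes FRA-2, was at 329, 350 and 317 CPM in untreated and 318, 306 and 339 CPM in IR libraries. Its groups overlapped, with a log2 fold change of -0.05 (SE 0.07, interval -0.20 to 0.10, adjusted P = 0.626, edgeR).

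JUN proteins can pair with each other as well as with FOS and ATF proteins, and JUND was the member of this family that rose. JUND (chr19:18279694-18281622, minus strand), which encodes a JUN protein often described as constitutively expressed, was at 38.1, 42.5 and 34.8 CPM in untreated and 60.02, 53.8 and 60.8 CPM in IR libraries. The groups were well apart. JUND rose 1.51-fold, from 38.5 ± 3.82 to 58.2 ± 3.80 CPM (SD, n = 3 each), with a log2 fold change of 0.60 (SE 0.09, interval 0.40 to 0.79, adjusted P = 0.00137, edgeR). JUND also had the highest GC content of the members, 69.9%, at the 99.8th percentile of tested genes, and after a trend of fold change with GC content over all genes was removed its log2 fold change was 0.04 (adjusted P = 0.791, edgeR).

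JUN and JUNB were not called. JUN (chr1:58776845-58784048, minus strand), a strong activator and a substrate of the JNK kinases, was at 110, 116 and 126 CPM in untreated and 138, 117 and 131 CPM in IR libraries, and IR replicate 2 lay within the untreated range. Its log2 fold change was 0.13 (SE 0.08, interval -0.04 to 0.31, adjusted P = 0.228, edgeR). JUNB (chr19:12791486-12793315, plus strand), a weaker activator that can restrain JUN, was at 12.4, 15.7 and 16.3 CPM in untreated and 17.3, 15.7 and 19.9 CPM in IR libraries. The JUNB groups overlapped, with a log2 fold change of 0.26 (SE 0.13, interval -0.02 to 0.54, adjusted P = 0.143, edgeR), and the value was -0.14 after removal of the GC trend. Exons of JUNB overlap exons of HOOK2 on the opposite strand, and the sources do not say that strand was used in counting. Reads from the shared stretch may therefore not have been told apart.

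ATF3 had the lowest P of the members. ATF3 (chr1:212565334-212620777, plus strand) was at 25.8, 27.0 and 27.8 CPM in untreated and 41.6, 47.5 and 47.0 CPM in IR libraries, every IR library being far above every untreated library. It rose 1.69-fold, from 26.9 ± 1.00 to 45.4 ± 3.28 CPM (SD, n = 3 each), with a log2 fold change of 0.76 (SE 0.08, interval 0.58 to 0.93, adjusted P = 0.000328, edgeR). Without any single library the log2 fold change lay between 0.72 and 0.80, and it was 0.74 after removal of the GC trend (adjusted P = 0.000148, edgeR) at a GC content of 50.8%. The canonical transcript of 1940 bases held 48.6 to 61.7% of ATF3 counts in untreated and 57.5 to 73.8% in IR libraries. Transcripts that began within 50 bases of the start sites of the ATF3 windows held at most 1.85% of ATF3 counts in a library. No ATF3 promoter stretch is therefore shown.

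EGR1 (chr5:138465479-138469303, plus strand), a zinc finger factor known to be induced through serum response factor, was at 26.2, 34.4 and 24.7 CPM in untreated and 39.5, 39.4 and 43.0 CPM in IR libraries. Untreated replicate 2 was closest to the IR libraries but still below them. EGR1 rose 1.43-fold, from 28.4 ± 5.22 to 40.6 ± 2.02 CPM (SD, n = 3 each), with a log2 fold change of 0.52 (SE 0.12, interval 0.26 to 0.77, adjusted P = 0.00934, edgeR). It was 0.41 after removal of the GC trend (adjusted P = 0.0171, edgeR) and 0.42 to 0.68 without any 1 library. IER2 (chr19:13150411-13154911, plus strand), a nuclear protein of the immediate early class, was at 33.5, 35.9 and 38.7 CPM in untreated and 47.7, 36.5 and 57.9 CPM in IR libraries. IR replicate 2 lay among the untreated libraries, whereas the others were above them. Exons of IER2 overlap 2 lncRNA genes of the opposite strand that were not quantified here, so their reads from the shared stretches may have been counted as IER2. IER2 did not pass the threshold with all libraries, at a log2 fold change of 0.40 (SE 0.14, interval 0.09 to 0.72, adjusted P = 0.0533, edgeR), and passed it without IR replicate 2, at 0.55 (adjusted P = 0.00876, edgeR). Two-sided exact permutation tests of the 10 members gave P = 0.1, the smallest that 3 libraries against 3 allow, for ATF3, EGR1, JUND, FOSB and FOSL1. The exact permutation P was 0.2 for FOS, JUN, JUNB and IER2 and 0.5 for FOSL2.

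**Figure D2:**
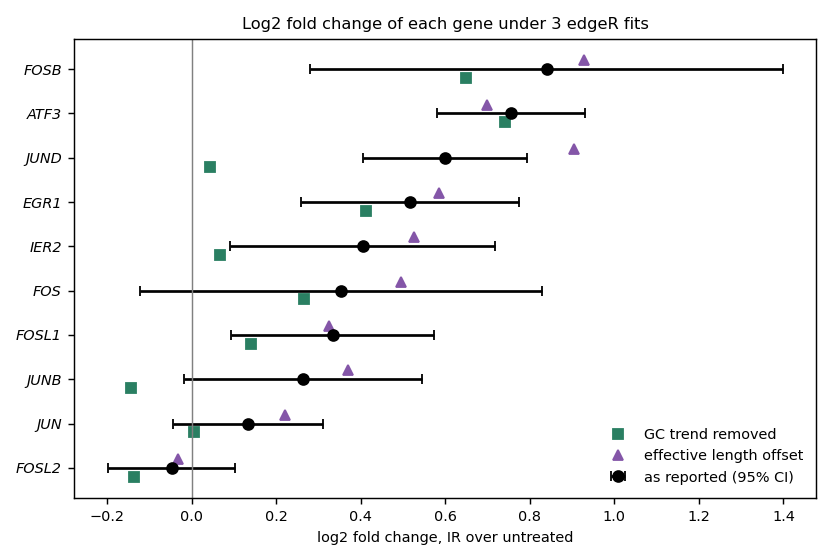
Log2 fold change of IR over untreated for the 10 members from 3 edgeR fits, on the estimated counts (circles, with 95% confidence intervals), after removal of the GC trend (squares) and with effective length offsets (triangles). ATF3 was at 0.76, 0.74 and 0.70 in these fits, whereas JUND was at 0.60, 0.04 and 0.90.

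Fold changes over all genes moved with GC content, and the members were GC-rich, with a median GC content of 57.5% against 48.6% over all tested genes. With the GC trend removed, 2 of the 10 members were called higher, ATF3 and EGR1, beside 11.7% of all genes. The median log2 fold change of the members was then 0.10. FOSB was at 0.65 (adjusted P = 0.0914, edgeR), FOSL1 at 0.14 (adjusted P = 0.4, edgeR) and IER2 at 0.07 (adjusted P = 0.703, edgeR). With the effective lengths estimated by kallisto as an offset, 3 members were called, ATF3, JUND and EGR1, beside 5.82% of all genes, and the median of the members was 0.51. The log2 fold change of JUND was then 0.90 (adjusted P = 0.0203, edgeR). Its effective length was 2059, 1939 and 1706 bases in untreated replicate 3 and IR replicates 1 and 3, in which kallisto gave counts to a JUND transcript of 500 bases, and 2644 to 2712 bases in the others. Effective lengths could exceed the transcript itself, being 3853 to 4465 bases for EGR1, whose transcript has 3137 bases. Whether kallisto corrected them for sequence bias is not given in the sources used here, so the offset and TPM may carry more than length. What makes fold changes move with GC content in these libraries was not tested.

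**Figure D3:**
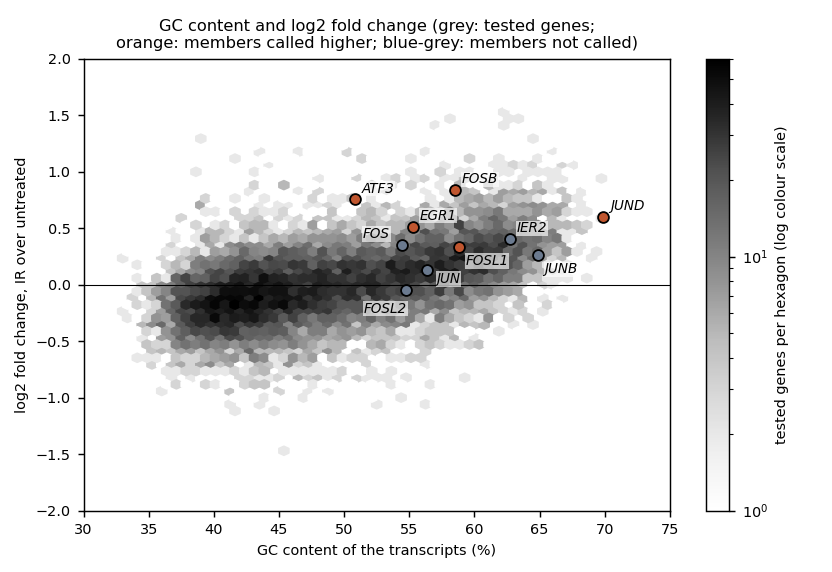
GC content of the transcripts of a gene (horizontal axis, %) and its log2 fold change of IR over untreated (vertical axis), with hexagons shaded by the number of tested genes on a log colour scale and members as labelled points, orange where called higher. The 26 genes outside the axes are not drawn, and JUND, at 69.9% GC, lies at the right edge of the cloud, while ATF3, at 50.8%, has a log2 fold change of 0.76.

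Levels were compared between genes in TPM, the deposited unit of transcript abundance, which is scaled for length and library total. The order by the mean of the 6 libraries was FOSL2 at 72.1 TPM, ATF3 at 49.97, JUN at 44.9, JUND at 28.2, FOSL1 at 24.3, IER2 at 17.2, EGR1 at 10.6, JUNB at 9.07, FOS at 1.99 and FOSB at 0.633 TPM. In untreated libraries alone the means of JUN (42.1 TPM) and FOSL1 (22.01 TPM) were above those of ATF3 (38.9 TPM) and JUND (19.9 TPM). The best-known pair of the AP-1 heterodimer thus differed in level, FOS being among the 2 lowest members and JUN among the 3 highest. In untreated libraries the ranges of the neighbours ATF3 and JUN, JUND and FOSL1, and EGR1 and JUNB overlapped. In IR libraries FOSL2 and ATF3 overlapped, as did each neighbour from JUN down to JUNB with the next, whereas ATF3 (57.9 to 63.7 TPM) lay above JUN (38.4 to 54.9 TPM). Much of the ATF3 level in TPM came from short transcripts. In the IR libraries one of 516 bases was at 35.4, 27.04 and 27.06 TPM and the canonical transcript at 14.5, 17.6 and 23.9 TPM, below the canonical JUN transcript at 42.6, 38.4 and 54.03 TPM. FOS and FOSB were below every other member in all 6 libraries.

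FOSL2 held most of the FOS family RNA, with 73.8 to 78.0% of the summed TPM of the 4 genes in untreated and 67.0 to 74.5% in IR libraries. FOSL1 held 19.1 to 24.2% in untreated and 22.7 to 30.04% in IR libraries, FOS 1.39 to 2.29% and 1.997 to 2.73%, and FOSB 0.352 to 0.630% and 0.585 to 0.968%. The summed FOS family level was 89.9 to 104 TPM in untreated and 93.6 to 111 TPM in IR libraries, so these groups overlapped. Within the JUN family, JUN held 58.9 to 60.8% in untreated and 47.6 to 55.0% in IR libraries, and JUND 27.9 to 28.9% and 33.8 to 41.1%, both without overlap between groups. JUNB held 10.7 to 12.2% and 9.68 to 11.3%. The summed JUN family level was 63.7 to 77.0 TPM in untreated and 69.9 to 115 TPM in IR libraries. The JUND values in TPM were 18.2, 20.1 and 21.5 in untreated and 38.5, 23.6 and 47.4 in IR libraries, more uneven than its CPM. In untreated replicate 3 and IR replicates 1 and 3, that transcript of 500 bases received 33.7, 66.6 and 161 counts, and none in the other libraries. The spread of JUND in TPM moved with that assignment, and JUND in CPM does not use it.

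The members shared a low number of exons, which the choice by symbol did not use. All 10 had at most 4 exons in the canonical transcript, as had 20.8% of tested coding genes, and JUN, JUNB and JUND had a single exon, as had 2.18%. The median transcript length was 2107 bases for members and 3411.5 bases for all tested coding genes, with FOSL2, at 6713 bases, and FOSB, at 3775 bases, above the latter. The pentamer ATTTA, the core of AU-rich elements that shorten the life of many immediate early RNAs, occurred at least once in the 3′ UTR of 9 members, IER2 being the exception, and in 73.1% of tested coding genes. Per kilobase of 3′ UTR the median was 1.61 in members and 1.68 in all tested coding genes. FOS had 5 ATTTA in 809 bases, the highest density of the members at 6.18 per kb, and FOSL2 had 9 in its 3′ UTR of 4872 bases.

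Other immediate early genes were counted over a list of 36, of which 33 were tested and EGR4, KLF4 and NPAS4 were too low. Of the 33, 9 (27.3%) rose and 2 (6.06%) fell, beside 15.5% and 14.5% of all tested genes, with a median of 0.18 on the log2 scale. DUSP2, a nuclear phosphatase of MAP kinases, rose by 0.81 on the log2 scale (SE 0.20, adjusted P = 0.0123, edgeR). ARC, best known as a synaptic immediate early gene, rose by 0.73 on that scale (SE 0.11, adjusted P = 0.00137, edgeR). NFKBIZ, an atypical IκB protein, rose by 0.64 (SE 0.08, adjusted P = 0.000868, edgeR). The genes that fell were ZFP36L2, an RNA-binding protein of AU-rich elements, at -0.36, and PHLDA1, a pleckstrin homology-like protein, at -0.28. With the GC trend removed 6 of the 33 were higher and 3 lower, beside 1671 and 1802 of the 14323 genes tested. DUSP2 was then at 0.44 (adjusted P = 0.0995, edgeR) and PHLDA1 at -0.15 (adjusted P = 0.252, edgeR), neither being called, whereas ARC was at 0.27 (adjusted P = 0.0274, edgeR) and NFKBIZ at 0.75. With effective length offsets neither ZFP36L2 nor PHLDA1 was called (adjusted P 0.128 and 0.156, edgeR). Without untreated replicate 1, 2 or 3 or IR replicate 2 the number called either way was 6, 7, 7 and 7 in place of 11. Over all genes, calls fell in these fits too. Those higher were 1295, 1357, 1487 and 1616 in place of 2227, and those lower 1287, 1244, 1530 and 1423 in place of 2080.

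Of 17 genes for other dimer partners of AP-1 and related leucine zipper proteins such as CREB1, together called dimer partners here, 15 were tested. The shares called, 2 of 15 higher (13.3%) and 3 of 15 lower (20%), were near the 15.5% and 14.5% of all tested genes. BATF3 and MAF, which encode leucine zipper partners of JUN or FOS proteins, were the genes of the 15 that rose, with log2 fold changes of 0.40 and 0.28. CREB1, the cyclic AMP response factor, fell by 0.66 on the log2 scale (SE 0.09, adjusted P = 0.0011, edgeR), from 62.05 ± 3.904 to 39.4 ± 4.13 CPM (SD, n = 3 each). ATF7 fell by 0.42 and ATF2, a JUN partner phosphorylated by stress kinases, fell by 0.34 on the same scale. With the GC trend removed 2 were higher and 3 lower, beside 1671 and 1802 of the 14323 genes tested. BATF3 (0.18, adjusted P = 0.33) and ATF2 (-0.16, adjusted P = 0.078) were no longer called by edgeR, and CREM (0.32) and MAFG (-0.30), named after their values were seen, were called in addition. With effective length offsets neither BATF3 nor MAF was called (adjusted P 0.0764 and 0.0699, edgeR), nor was ATF2 (0.0513). Without untreated replicate 1, 2 or 3 or IR replicate 2 the number called was 3, 2, 3 and 3 in place of 5. Calls over all genes also fell in these fits, as given above.

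The 28 kinases and ternary complex factors upstream of these genes were all tested, and 6 (21.4%) rose while 5 (17.9%) fell, near the 15.5% and 14.5% of all tested genes, with a median of -0.01 on the log2 scale. Of the p38 kinases, MAPK11 and MAPK12 rose by 0.63 and 0.50 on the log2 scale. MAPK13 fell by 0.67, from 2.36 ± 0.208 to 1.46 ± 0.175 CPM (SD, n = 3 each). MAPK14, named after its values were seen, was at -0.02 and was not called (adjusted P = 0.824, edgeR). With the GC trend removed MAPK11 was at 0.29 (adjusted P = 0.0788, edgeR) and MAPK12 at 0.16 (adjusted P = 0.105, edgeR), neither being called, and MAPK13 was not called with effective length offsets (adjusted P = 0.212, edgeR). Of their upstream kinases, MAP2K3 was at 0.54 and MAP2K6 at -0.92 on the log2 scale, the latter from 3.14 ± 0.939 to 1.68 ± 0.249 CPM (SD, n = 3 each). ELK4, a ternary complex factor that joins serum response factor at CArG boxes, fell by 0.62 on the log2 scale (SE 0.08, adjusted P = 0.000645, edgeR). ELK1, ELK3 and SRF, named after their values were seen, were at 0.13, 0.10 and -0.12 and were not called. With the GC trend removed ELK3 (0.19, adjusted P = 0.0233) and SRF (-0.38, adjusted P = 0.0101) were called by edgeR, and ELK1 was not. MAP2K6 was not called with the GC trend removed (-0.78, adjusted P = 0.0586, edgeR) or with effective length offsets (-0.45, adjusted P = 0.668, edgeR). With the GC trend removed 3 of the 28 were higher and 5 lower, beside 1671 and 1802 of the 14323 genes tested. Without untreated replicate 1, 2 or 3 the number called was 6, 5 and 6 in place of 11, and without IR replicate 3 it was 7. Calls over all genes also fell in these fits.

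Of 24 textbook AP-1 target genes, 22 were tested, CXCL8 and MMP1 being too low, and 12 (54.5%) rose while none fell, beside 15.5% and 14.5% of all tested genes. Their median log2 fold change was 0.34. MMP3, the matrix protease stromelysin 1, rose by 1.03 on the log2 scale (SE 0.10, adjusted P = 0.000242, edgeR), from 59.0 ± 4.67 to 121 ± 14.2 CPM (SD, n = 3 each). MMP9, a gelatinase, rose by 0.80 on that scale (SE 0.19, adjusted P = 0.0127, edgeR). HMOX1, the haem-degrading enzyme heme oxygenase 1, rose by 0.58 (SE 0.08, adjusted P = 0.00133, edgeR). With the GC trend removed 8 of the 22 were higher, beside 11.7% of all genes, and none was lower, and MMP9 was then at 0.47 (adjusted P = 0.0765, edgeR). Many of these genes also answer to other factors, and AP-1 activity itself was not measured in these libraries.

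**Figure D4:**
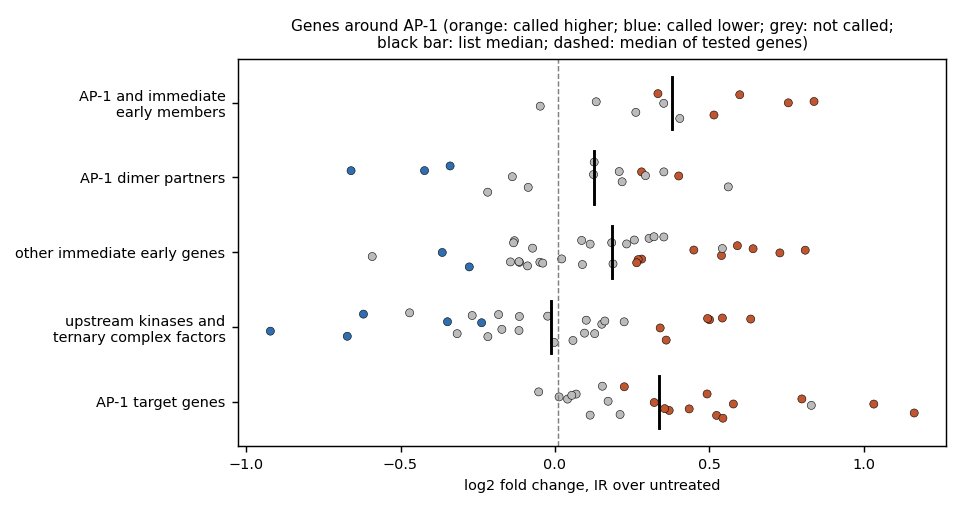
Log2 fold change of IR over untreated for each tested gene of the members and of the 4 lists around AP-1, with 1 point per gene (orange where higher, blue where lower, grey where not called), a black bar for the median of each list and a dashed line for that of all tested genes. Medians were 0.38 for the members, 0.18 for other immediate early genes, 0.13 for dimer partners, -0.01 for upstream kinases and ternary complex factors and 0.34 for AP-1 target genes.

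For ATF3, the member with the lowest P, the genes whose level was most alike over the 6 libraries were sought among 10134 genes with a mean of at least 10 CPM. CFAP58 and NANS had a Pearson correlation of 0.998 with ATF3, and MAPKAP1, MMP3 and PRAME one of 0.997. The 6 libraries fall into 2 groups of 3 and differ in depth, and fold changes moved with GC content. The correlations are therefore a description and carry no test. CFAP58 had a log2 fold change of 0.68, PRAME of 0.34, NANS of 0.28 and MAPKAP1 of 0.09.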

How the data were processed

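The 3 untreated and 3 IR RNA-seq libraries of U-2 OS cells were grouped by their labels. The authors removed adaptors with fastp and assigned reads with kallisto to GENCODE release 37 of GRCh38. The deposited values are an estimated count per transcript, which is not normalized, and a TPM value scaled for effective length. The labels name a poly(A) library kit and the paper a total RNA kit, and which was used is not settled here. Gene symbols came from GENCODE release 44, joined on transcript identifiers, and 2460 transcripts with 1.54 to 1.80% of each library's counts had no match and were dropped.

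Counts of all transcripts of a gene were added, rounded, filtered by filterByExpr, scaled by TMM and tested by edgeR's quasi-likelihood test (edgeR 4.0.16, limma 3.58.1, R 4.3.3) with Benjamini–Hochberg adjustment at 0.05. The common biological coefficient of variation was 0.0931. SE was taken as the size of the log2 fold change divided by the root of its F statistic, with intervals at 95%, and CPM were scaled by TMM. IR replicate 3 had the most counts and so the smallest counting error. Every pair of replicates differed by more than sampling noise (chi-square per gene 3.46 to 32.3). The fit was also run on simulated counts, and the outcome is not reported here. DESeq2 1.42.0 was an alternative. The GC trend was a lowess curve (span 0.3) used as an offset.

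Members and lists were chosen with earlier results of these data known. The lists could share genes. SRF, MAFF and HBEGF of the other lists were also among the other immediate early genes. Named were all members, the 4 p53 targets, up to 3 called genes with the highest and 3 with the lowest log2 fold change of each list (mean of at least 1 CPM), and the 5 genes most like the member of lowest P. IL6, a called AP-1 target, was below 1 CPM. Imaging and single-cell data were not analysed here.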

Additional observations from a re-analysis of the deposited data

How the results depend on the processing

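The 14 alternatives were no filter on low counts, a filter of 10 counts in every library, effective length offsets, removal of the GC trend, a replicate block, DESeq2 size factors, the likelihood ratio test of edgeR, the Wald test of DESeq2 and leaving out each of the 6 libraries. ATF3 and EGR1 kept their direction and call in all 14, JUND in 13, FOSL1 in 7 and FOSB in 6, and IER2 was called in 6. JUNB changed sign to -0.14 with the GC trend removed (adjusted P = 0.346, edgeR). Of the members, 5 were called higher, but 2 with the GC trend removed, 3 with effective length offsets and 3 to 5 when 1 library was left out, the lowest being without untreated replicate 1, 2 or 3. The number was 6 without a filter on low counts, with the filter of 10 counts in every library and with the likelihood ratio test. Over all genes, 833 were higher and 875 lower with effective length offsets, in place of 2227 and 2080. Leaving out 1 library gave 1295 to 2114 higher and 1244 to 2284 lower. With effective length offsets the number called was 5 for other immediate early genes (11 before), 2 for dimer partners (5 before), 4 for upstream kinases and ternary complex factors (11 before) and 6 for AP-1 targets (12 before). Leaving out 1 library gave 6 to 11, 2 to 5, 5 to 12 and 9 to 11 in the same order. The cause of these shifts was not tested.

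No pairing of the libraries by replicate number was seen, which does not exclude that they were paired. The deviations of libraries with the same number correlated at -0.017, 0.007 and -0.052 over genes, and not every library correlated best with its own number. With a replicate block 5 members were called higher, the FOSB adjusted P was 0.0508 and that of IER2 was 0.0439 (edgeR), 7 other immediate early genes were called in place of 11, and 1727 genes were higher and 1624 lower over all genes. FOSB at 21 to 85 counts and FOS at 41 to 161 counts were the members whose depth limits precision most.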
